A study of Mus musculus with 18 samples.

Results

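Day 6 aggregates of Tet1/2/3 triple knockout (TKO) cells cultured without cytokines were compared with day 6 wild-type primordial germ cell-like cells (PGCLCs) made with cytokines. The comparison holds 4 of the 18 RNA-seq libraries of the series, 2 for each group, chosen by the labels of the count columns, and all 16582 genes that passed the filter on low counts were tested. Both groups come from the male mouse embryonic stem cell (ESC) line E14Tg2a, were kept in 2i/LIF, passed through epiblast-like cells (EpiLCs) and were then grown as floating aggregates. The TKO line is 1 clone in which the reading frames of Tet1, Tet2 and Tet3 were cut out with CRISPR/Cas9. The wild-type aggregates received BMP4, BMP8a, SCF, LIF and EGF, and the TKO aggregates received none of them. The methods of the study add that the wild-type cells were sorted for SSEA1 and CD61, while TKO aggregates were collected whole, although the labels call both aggregates. Genotype, cytokines and sorting therefore change together in this comparison and cannot be told apart within it. Side by side values are given from day 6 TKO aggregates with cytokines, which share the medium but not the genotype or the sort with the wild-type cells, and from TKO and wild-type EpiLCs.

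Primordial germ cells are the embryonic founders of sperm and eggs. In the mouse they arise from a few epiblast cells in response to BMP signals, and the transcription factors BLIMP1 (encoded by Prdm1), PRDM14 and AP2γ (Tfap2c) switch somatic genes off and germ cell genes on. PGCLCs are the culture model of this step, in which BMP4 and BMP8a induce the fate while SCF, LIF and EGF keep the cells alive. TET enzymes oxidise 5-methylcytosine in DNA, a route to removing methylation, and promoters of many germline genes are methylated in somatic cells and become active once methylation is lost. The comparison addresses which transcripts separate TKO cells that reached day 6 without inductive cytokines from wild-type PGCLCs.

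Depth was unequal between the groups. The TKO libraries held 12063489 and 11286050 counts and the wild-type libraries 26130723 and 28810831. The ribosomal RNA locus Rn45s took 17.5% and 18.4% of the counts in the TKO libraries and 33.7% and 36.4% in the wild-type libraries, and with 199 structural RNA genes, Rn45s among them, left out before scaling the calls below numbered 1333 in place of 1345. Across genes the replicates of the TKO group correlated at Pearson r = 0.984 and those of the wild-type group at 0.990, on log2 values of genes that are not independent replicates. Levels below are normalised counts, meaning counts divided by the size factor of the library, and errors of log2 fold changes are standard errors (SE). The study describes the replicates as biological, and the labels do not say whether they are separate cultures, so p-values measure the spread between these libraries.

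The targeted genes were checked first. Tet1 (chr10:62804570-62887469 in GRCm38) was at 998 and 737 normalised counts in the TKO libraries and at 12106.5 and 11503 in the wild-type libraries, a log2 fold change of -3.78 ± 0.35 SE. Tet2 (chr3:133463677-133545136) was at 274 and 304 in TKO against 3114 and 4812 in wild-type, a log2 fold change of -3.80 ± 0.47 SE. Both were called lower. The counts that remain can come from exons outside the reading frame, which the deletion leaves in place, but their source was not tested. Tet3 (chr6:83362373-83457208) stood at 252 and 237 in TKO and at 171 and 330.1 in wild-type, so the groups overlapped, and its log2 fold change was -0.06 ± 0.30 SE. Tet3 therefore does not check the labels at day 6. In EpiLCs 2 of the 3 Tet genes were called lower in TKO against wild-type, and the log2 fold change of Tet3 was -2.64. In wild-type aggregates without cytokines Tet3 reached 5851 and 3464 at day 6.

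The comparison was lopsided. With log2 fold changes required to pass 2 in size and adjusted p-values to lie under 0.05, edgeR's quasi-likelihood test called 1234 genes higher in the TKO group, 7.44% of those tested, and 111 lower, 0.669%. Every list below is read against these shares, and against a median log2 fold change over all tested genes of 0.03. Scaling by library size alone moved that median to 0.48, so directions are relative to the trimmed mean scaling used here. Genes called higher were mostly of low level, with a median of 25.1 normalised counts over the 4 libraries, against 108.7 for genes called lower. Of the genes below 20 normalised counts 17.5% were called higher, and of those at 500 or more 0.639% were. No count at all was seen in either wild-type library for 117 of the genes called higher, and in either TKO library for 1 of the genes called lower. That gene was Hbb-bh1, an embryonic globin, at 14.6 and 8.37 in wild-type, and at least 3.27-fold lower in TKO, computed against a floor of 3 counts per library. Its call ended without either TKO replicate and without wild-type replicate 1. Without wild-type replicate 1 the calls fell to 636 higher and 82 lower, and without TKO replicate 2 the lower calls fell to 69.

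**Figure D1:**
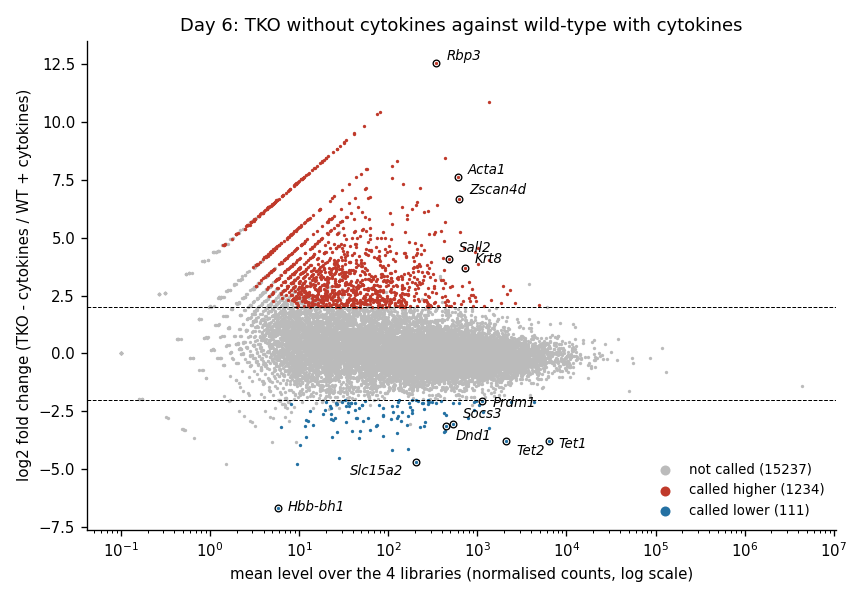
Log2 fold change of each tested gene (day 6 TKO without cytokines over day 6 wild-type with cytokines) against its mean level in the 4 libraries, in normalised counts on a log scale. Red and blue points are the 1234 genes called higher and the 111 called lower, dashed lines mark a log2 fold change of 2 in either direction, and circles mark named genes, with photoreceptor genes such as Rbp3 at the top. Red streaks at the left are genes with few or no wild-type counts, whose fitted fold change depends on the prior count.

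One gene group set the 4 libraries of TKO cells without cytokines, at day 2 and at day 6, apart from all others. These libraries held RNA of genes known from rod photoreceptors, the light-sensing cells of the retina, and from the eye lens. Gnat1, the rod transducin subunit, was at 729 and 1007 normalised counts in the day 6 TKO libraries and at 1.39 and 3.22 in the wild-type libraries. That is a ratio of 366, with a 95% interval of 177 to 913 that covers counting error only. Rbp3, which carries retinoids between photoreceptors and pigment epithelium, was at 551 and 836 with no wild-type count, which gives an at least 345-fold higher level. Grk1, a kinase of photoreceptor signalling, was at 208 and 293 against 0.695 and 0.643, a ratio of 369 (95% interval 102 to 3060). Rp1, of the rod outer segment, was at 187 and 247 against 1.39 and 0, a ratio of 322 (95% interval 88.4 to 2670). Pde6g, a subunit of the rod phosphodiesterase, was at 91.5 and 144 against 1.39 and 0.643, a ratio of 115 (95% interval 38.9 to 564). The groups did not overlap for these 5 genes, which was so for all 1234 genes called higher. Replicate 2 was the higher TKO library for each of the 5.

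Of the 37 genes in a photoreceptor list put together after these values were seen, 35 were tested and 26 were called higher, none lower, with a median log2 fold change of 5.57 (5.31 with the 4 genes without wild-type counts at their bound). The 9 tested members that were not called included the cone genes Opn1sw (48.5 and 49.2 in TKO, 18.8 and 30.2 in wild-type) and Arr3 (26.9 and 21.5 against 15.3 and 10.9). The rod transcription factors Nrl and Crx were called, Nrl at 96.9 and 132.5 against 0.695 and 0, Crx at 79.7 and 138.8 against 0 and 1.29. Summed over the list, the TKO libraries held 6876 and 9811 normalised counts, or 0.0529% and 0.0689% of all counts, the wild-type libraries 316 and 361, and TKO aggregates with cytokines 712 and 779.6. Their median log2 fold change was 0.20 in TKO with cytokines against wild-type.

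Of 15 tested lens genes 9 were called higher, and 5 were called without TKO replicate 2, without wild-type replicate 1 or without wild-type replicate 2, and 3 with the filter at a mean CPM of 1, which tests fewer genes. Crybb2, a lens crystallin, was at 129 and 193 with no count in either wild-type library, at least 80.2-fold higher, although DESeq2 did not call it (adjusted p = 0.226). Cryaa, the αA-crystallin, was at 189.5 and 249 against 1.39 and 0.643. Muscle genes were called higher in 11 of 21 tested, with 6 calls without wild-type replicate 1 and 7 without TKO replicate 2, and 6 with that filter. Of the muscle list only 1 gene passed the limit used below, more than 5 times every library outside TKO without cytokines. Summed over the list, the day 6 TKO libraries held 4737 and 6142 normalised counts and wild-type PGCLCs 1232 and 1925. Wild-type aggregates without cytokines held 5742 and 4807 at day 2. Acta1, the skeletal muscle actin, was at 1016.5 and 1385 in the day 6 TKO libraries and 4.17 and 7.72 in wild-type PGCLCs, yet at 1975 and 1887 in wild-type aggregates without cytokines at day 2. Actg2, the smooth muscle actin, was at 94.8 and 152 against 0 and 1.93, a ratio of 121 (95% interval 40.7 to 589). Other retina genes were called higher in 6 of 14 tested (4 without wild-type replicate 1) and glia genes in 2 of 11 (1 without TKO replicate 2 or wild-type replicate 1), while liver and adult blood genes gave no call among 4 tested (1 higher with scaling by library size alone, without the filter on low counts or with only the 4 libraries compared). All of these lists were chosen after the values were seen.

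**Figure D2:**
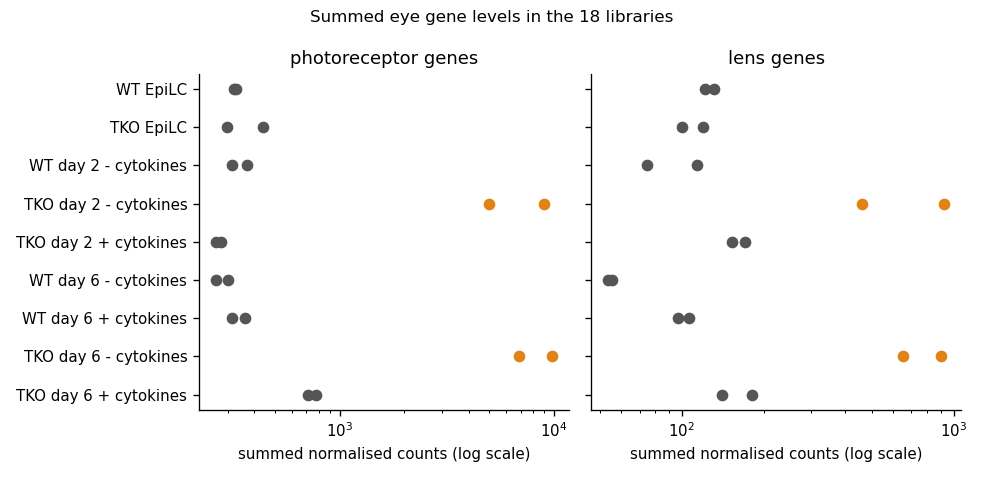
Summed normalised counts of the photoreceptor list (left) and the lens list (right) in each of the 18 libraries, on log axes, with 1 row per group and 1 point per library. Orange points are the TKO libraries without cytokines at days 2 and 6, which lie at 4998 or more for photoreceptor genes, while every other library lies at 779.6 or less.

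Across the whole table, 51 of the genes called higher had all 4 TKO libraries without cytokines at more than 5 times the highest of the other 14 libraries. Of the 51, 24 were on the 3 eye lists, 1 was on the muscle list and 26 were on neither. Those 26 include further genes known from retina or muscle, such as Gucy2f, Kcnv2 and Myh2, beside others such as Aldoart2, Dlx5, Grem1 and Krt5, all chosen after their values were seen. For 18 photoreceptor genes called higher with a mean of 100 or more in the day 6 TKO libraries, replicate 2 held 1.32 to 1.74 times the level of replicate 1, with a median of 1.5, and at day 2 the ratio was 1.49 to 2.23. Over all 10342 tested genes at that level the median ratio at day 6 was 1.05, and none was computed for day 2. Whether this RNA came from the TKO cells themselves was not tested, nor was its part in the other results. Since the 51 genes were picked among the called ones, leaving them out takes the calls from 1345 to 1294 by subtraction alone. Other called genes of the eye lists stay in that number.

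DESeq2 called 23 of the 35 photoreceptor genes, and Cnga1 was not among them (adjusted p = 0.313). Promoters of Cnga1 and 2 other photoreceptor genes called higher by edgeR are shown, from 250 bases before to 50 after the start in RefSeq (GRCm38.p6), since CRX is known to bind TAATCC in rod promoters. The capitals mark TAATCC or its reverse complement GGATTA.
Rbp3, chr14:33953753-33954052, plus strand: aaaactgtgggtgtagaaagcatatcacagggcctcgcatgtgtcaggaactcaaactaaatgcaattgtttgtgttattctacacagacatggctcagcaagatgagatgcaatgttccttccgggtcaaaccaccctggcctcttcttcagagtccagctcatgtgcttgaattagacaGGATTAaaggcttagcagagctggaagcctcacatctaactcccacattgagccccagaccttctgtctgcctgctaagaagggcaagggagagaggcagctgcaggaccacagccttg
Sag, chr1:87803430-87803729, plus strand: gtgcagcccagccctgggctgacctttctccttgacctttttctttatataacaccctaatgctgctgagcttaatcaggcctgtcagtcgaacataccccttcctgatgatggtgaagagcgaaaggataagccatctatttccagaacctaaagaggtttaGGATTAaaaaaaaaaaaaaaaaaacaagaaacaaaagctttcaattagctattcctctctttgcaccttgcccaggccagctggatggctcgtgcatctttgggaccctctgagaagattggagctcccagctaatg
Cnga1, chr5:72642703-72643002, minus strand: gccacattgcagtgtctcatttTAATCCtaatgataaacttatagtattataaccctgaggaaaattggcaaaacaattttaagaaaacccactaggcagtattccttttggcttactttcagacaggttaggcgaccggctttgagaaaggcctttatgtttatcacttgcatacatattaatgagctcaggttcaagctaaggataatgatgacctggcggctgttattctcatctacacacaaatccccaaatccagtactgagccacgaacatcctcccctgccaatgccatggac
TAATCC on either strand was in 8 of the 17 called photoreceptor genes with a promoter in the table, in 11 of the 25 tested ones with a promoter, and in 7.06% of all 32851 promoters or 8.14% of all genes with one. A match is a description of these letters and not of binding.

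Some genes that specify primordial germ cells fell in TKO aggregates without cytokines against the sorted wild-type PGCLCs. Of 20 tested genes of PGC specification and surface markers, 5 fell past both limits (2 with scaling by library size alone), 15 were not called and none rose, with a median log2 fold change of -0.95 against 0.03 over all genes. In whole aggregates fewer germ cells and less RNA per germ cell cannot be told apart. At the same time all 8 PGCLC markers exceeded 10 normalised counts in both TKO libraries, and their summed level was 5197 and 5184 in TKO against 17228 and 14491 in wild-type. In wild-type aggregates grown without cytokines the same sum was 1407 and 639.9, and 4 of the 8 exceeded 10 in both libraries.

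Prdm1, the first switch of the germ cell programme, was at 422 and 483 normalised counts in TKO and at 1899.7 and 1755 in wild-type. Its groups did not overlap, which was so for all 111 genes called lower, and the log2 fold change was -2.03 ± 0.33 SE (edgeR adjusted p = 0.000606). That value lies next to the limit, and the call ended without TKO replicate 1 (-1.95) and without wild-type replicate 1 (-1.97). In wild-type aggregates without cytokines Prdm1 stood at 4.99 and 1.16, and in TKO aggregates with cytokines at 111 and 208. Prdm14 was at 504 and 602 in TKO against 1295 and 1046 in wild-type, and Tfap2c at 1653 and 1775 against 4014 and 2851. Both were lower at an adjusted p below 0.05 (0.0268 and 0.00451) but within a log2 fold change of 2, at -1.10 ± 0.34 SE and -1.02 ± 0.23 SE.

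Nanos3, an RNA-binding protein that keeps migrating germ cells alive, was at 31.2 and 22.7 in TKO and at 239 and 142 in wild-type, a log2 fold change of -2.83 ± 0.41 SE. Dnd1, which protects germ cell mRNAs from microRNAs, was at 87.2 and 94.7 against 861.5 and 733.5, with -3.15 ± 0.44 SE. Dppa3 (Stella) was at 422 and 317 against 901 and 871, with -1.28 ± 0.38 SE, short of the fold limit. Kit, the receptor for the SCF that only the wild-type cells were given, was at 1766 and 1599 against 7481 and 6649. Its log2 fold change of -2.09 ± 0.49 SE was called (adjusted p = 0.00646), and no longer so without TKO replicate 2 (adjusted p = 0.0603). Ifitm1, a surface protein of early germ cells, was at 944 and 877 against 4064 and 3656 at -2.10 ± 0.20 SE. Scaling by library size alone left Ifitm1 at -1.65 and Prdm1 and Kit at -1.58 and -1.63.

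CD61, on which the wild-type cells were sorted, is encoded by Itgb3, so its level is not a finding. Itgb3 was at 311 and 290.3 in TKO against 537 and 443 in wild-type. The pluripotency factors that germ cells keep did not separate the groups by the test. Nanog was at 7386 and 6303 in TKO against 6537 and 7238 in wild-type, which overlap, and Pou5f1 at 7198 and 9948.5 against 13969 and 11621, with a log2 fold change of -0.60 ± 0.42 SE. Lin28a, which blocks let-7 maturation, was higher at 3531 and 4742 against 1497 and 1407, with 1.49 ± 0.30 SE (adjusted p = 0.00284) and below the fold limit.

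**Figure D3:**
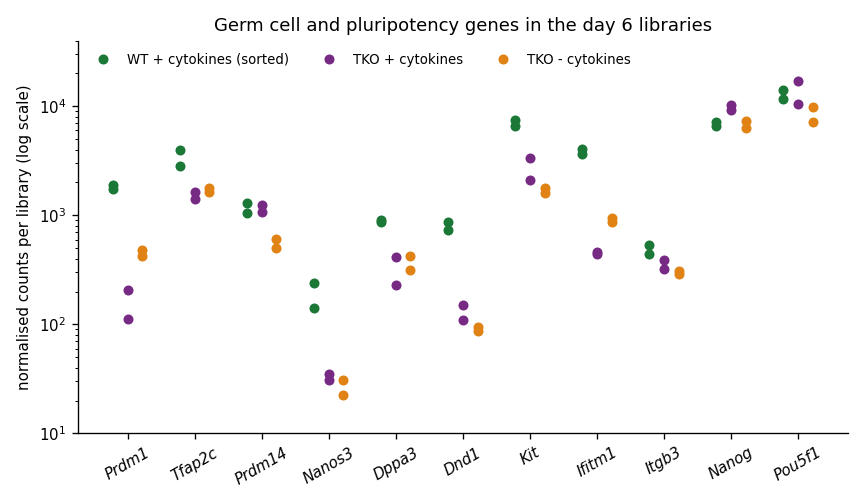
Normalised counts (log axis) of 11 germ cell and pluripotency genes in the day 6 libraries, 1 point per library and 2 per group. Green points are sorted wild-type PGCLCs with cytokines, purple points TKO aggregates with cytokines and orange points TKO aggregates without cytokines. Nanos3, Dnd1, Kit and Ifitm1 lie below the wild-type points in both TKO groups, while the Nanog levels of TKO without cytokines overlap those of wild-type.

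Some genes of the later germline rose. Of 23 tested late germline genes 6 rose and none fell past the limits, and of 29 meiosis genes 6 rose and none fell. The other 17 and 23 were not called, and the medians were 0.66 and 0.16. At an adjusted p below 0.05 alone, 7 late germline genes were higher and 1 lower, and 7 meiosis genes were higher and 2 lower. Stra8, which the study names as a late germline marker, was not called, at 0.75 (edgeR adjusted p = 0.186). Mael, which acts in silencing of transposons by piRNAs, was at 519 and 641 normalised counts in TKO and at 73.0 and 86.2 in wild-type. Its log2 fold change was 2.84 ± 0.29 SE (edgeR adjusted p = 2.95e-05), and the wild-type libraries lay close together. Taf7l, a germ cell form of a TFIID subunit, was at 255 and 322 against 49.4 and 49.5, with 2.52 ± 0.35 SE. Brdt, the testis-specific bromodomain protein, was at 138 and 116 against 23.6 and 25.1, with 2.36 ± 0.40 SE. It was also called higher in TKO EpiLCs, at 2.66. Spesp1, a protein of the sperm head, was at 177 and 212 against 18.8 and 26.4, with 3.08 ± 0.45 SE. Wt1, a factor of the gonad as much as of other mesoderm, was at 66.8 and 88.4 against 4.17 and 8.37. Tex16 had only 10 wild-type counts in all, and leaving out any library ended its call.

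Among meiosis genes the synaptonemal complex component Sycp1 was at 280 and 249 in TKO against 42.4 and 70.1 in wild-type, a log2 fold change of 2.21 ± 0.47 SE. Sycp2, another protein of its axis, was at 169 and 136 against 37.5 and 37.3, at 2.01 ± 0.45 SE, next to the limit. Its call ended without the filter on low counts (1.99), with the replicate block (2.00), without TKO replicate 1 (1.83) and without wild-type replicate 1 (adjusted p = 0.053). Ankrd31, which helps to place meiotic DNA breaks, was at 93.7 and 90.9 against 19.5 and 21.9, at 2.13 ± 0.43 SE. Rad21l, a meiotic cohesin subunit, had 1 wild-type count, and its ratio of 48.7 has a 95% interval of 8.05 to 1990 from counting alone. Stag3, the other meiotic cohesin in the list, went the opposite way at 1106 and 954 against 2783 and 2988, with -1.51 ± 0.23 SE and an adjusted p of 0.000388, within the fold limit. Without wild-type replicate 1 the list had 2 calls in place of 6, and Sycp1 was then at 1.89 (adjusted p = 0.0599). Ddx4, a helicase of all later germ cells, was at 410.3 and 413 against 211 and 162, at 1.12 ± 0.31 SE. Of these genes Mael, Taf7l, Brdt, Spesp1, Sycp1 and Ankrd31 were called higher also in TKO aggregates with cytokines against the same wild-type libraries.

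Promoters of 4 later germline genes are shown because many such promoters hold the E-box CACGTG (in capitals), to which complexes with MAX bind. Each window runs from 250 bases before to 50 after the RefSeq start in GRCm38.p6.
Mael, chr1:166238695-166238994, minus strand: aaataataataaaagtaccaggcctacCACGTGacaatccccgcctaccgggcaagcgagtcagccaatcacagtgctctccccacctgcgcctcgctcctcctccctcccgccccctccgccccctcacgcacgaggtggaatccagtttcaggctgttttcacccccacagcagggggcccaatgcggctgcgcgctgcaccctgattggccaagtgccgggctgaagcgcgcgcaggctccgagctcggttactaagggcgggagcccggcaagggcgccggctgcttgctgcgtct
Taf7l, chrX:134476441-134476740, minus strand: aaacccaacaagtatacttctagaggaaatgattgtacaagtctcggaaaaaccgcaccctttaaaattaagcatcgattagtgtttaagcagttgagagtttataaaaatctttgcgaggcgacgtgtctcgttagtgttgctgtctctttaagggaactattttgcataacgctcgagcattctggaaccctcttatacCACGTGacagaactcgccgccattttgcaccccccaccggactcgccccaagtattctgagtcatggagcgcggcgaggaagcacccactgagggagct
Brdt, chr5:107330944-107331243, plus strand: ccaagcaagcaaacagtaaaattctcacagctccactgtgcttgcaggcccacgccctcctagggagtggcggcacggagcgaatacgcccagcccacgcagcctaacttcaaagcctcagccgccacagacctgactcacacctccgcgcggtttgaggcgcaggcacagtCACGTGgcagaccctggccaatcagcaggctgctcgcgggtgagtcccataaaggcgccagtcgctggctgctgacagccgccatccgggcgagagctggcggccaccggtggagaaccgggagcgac
Sycp1, chr3:102936051-102936350, minus strand: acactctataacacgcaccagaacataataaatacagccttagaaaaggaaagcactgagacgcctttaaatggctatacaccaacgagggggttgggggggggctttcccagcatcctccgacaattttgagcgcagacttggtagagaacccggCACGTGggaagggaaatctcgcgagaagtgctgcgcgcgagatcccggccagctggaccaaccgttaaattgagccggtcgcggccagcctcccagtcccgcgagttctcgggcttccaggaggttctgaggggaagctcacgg
CACGTG, which reads the same on both strands, was in the promoters of 4 of the 11 germline genes called higher that have one in the table, and in 19 of the 59 germline genes tested with one. Of all 32851 promoters 7.15% hold it, and of all genes with one 8.09%. The E-box begins 223 bases before the start in Mael, 49 in Taf7l, 78 in Brdt and 94 in Sycp1, and the windows hold 24, 17, 23 and 21 CG pairs.

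The piRNA pathway, which silences transposons in the germline, was mixed. Of 21 tested genes Mael rose and Fkbp6 and Asz1 fell. Fkbp6, a co-chaperone for loading piRNAs, was at 11.8 and 25.2 normalised counts in TKO and at 311 and 318 in wild-type, a log2 fold change of -4.11 ± 0.57 SE. It was called lower in TKO EpiLCs as well, at -3.42. Asz1 was at 5.38 and 7.57 against 36.2 and 41.8, and its call ended on leaving out any of the 4 libraries (adjusted p 0.114 to 0.204).

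Naive pluripotency genes, which mark the ground state of ESCs, gave no call among 17 tested, with a median log2 fold change of -0.60. Tfcp2l1 was lower at 2779 and 2819.7 in TKO against 7565 and 8131 in wild-type, -1.51 ± 0.34 SE (adjusted p = 0.00495), and Klf4 at 909.9 and 801.5 against 1185 and 2212, -1.01 ± 0.34 SE. Fbxo15 and Dppa2 went up within the fold limit, Fbxo15 at 4205 and 4294 against 2057 and 1593. Of 18 formative and primed genes, which mark the epiblast on its way to the germ layers, 5 were called higher, 13 were not called and none was called lower, with a median of 1.29. Fgf5, the classic marker of primed epiblast, was at 323 and 317 against 41.7 and 18.7, at 3.39 ± 0.55 SE. In TKO aggregates with cytokines Fgf5 stood at 10.1 and 16.1, below the wild-type libraries. Sall2 was at 956 and 847 against 41.0 and 63.1, with 4.09 ± 0.32 SE (adjusted p = 3.35e-06). Cdh2 (N-cadherin) was at 378 and 366 against 46.6 and 48.3, Pou3f1 at 226 and 245 against 40.3 and 41.8. Dnmt3b, a de novo DNA methyltransferase, was at 1611 and 2269 against 437 and 494, at 2.04 ± 0.28 SE, and left the call without TKO replicate 2 (1.78) and without wild-type replicate 1 (1.95).

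Targets of the withheld cytokines were read next. Socs3, the feedback inhibitor that LIF induces through STAT3, was at 126 and 108.5 normalised counts in TKO without cytokines and at 949 and 973 in wild-type, a log2 fold change of -3.05 ± 0.32 SE. TKO aggregates with cytokines held 1937 and 1243, so that Socs3 separated both groups with LIF from the group without it. It was the only one of 14 tested LIF and STAT3 targets to be called, while 9 of the 14 were lower at an adjusted p below 0.05, and the list median was -1.01 here and 0.31 in TKO with cytokines against wild-type. BMP targets did not fall as a list. Id1, a direct BMP target, was at 279 and 349.6 in TKO without cytokines and at 298 and 254 in wild-type, which overlap, and at 2872 and 1339.9 in TKO with cytokines. Of 16 BMP targets 3 rose and none fell. These were Id2, Nog (a BMP antagonist, at 87.2 and 130.0 against 2.78 and 6.43) and Hand1, and 1 of the 3 calls, that of Nog, stayed without wild-type replicate 1. Bmp4 itself was at 394 and 588 against 384.5 and 354.5.

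Dusp4, a phosphatase that dampens ERK, was at 303 and 233.5 in TKO against 2918 and 2019 in wild-type, with -3.22 ± 0.47 SE. It and Ier3 were the 2 of 15 ERK feedback genes to fall, and the call of Ier3 ended on leaving out any library. Of 18 early response genes, which rise within minutes of a stimulus, Fos, Fosb and Ier3 fell while the heat shock genes Hspa1a and Hspa1b rose. Fos was at 49.5 and 41.7 against 190.5 and 394, and Hspa1b at 201 and 307 against 22.9 and 43.1. All 3 lower calls ended without TKO replicate 1, TKO replicate 2 or wild-type replicate 2, and the higher calls numbered 1 in place of 2 without TKO replicate 1 or wild-type replicate 1. The wild-type cells went through sorting, and its part in these genes was not tested. Among 14 cytokine receptors Kit was the only call, and with scaling by library size alone 1 receptor was called higher and none lower. At an adjusted p below 0.05 alone 4 were higher and 4 lower, with a median log2 fold change of 0.32. Among the lower ones Lifr, at 863 and 950.4 against 2576 and 2903, and Il6st (gp130), at 985 and 1116 against 2317 and 2316, were short of the fold limit.

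Among somatic genes 8 of 21 mesoderm, 6 of 18 endoderm and 5 of 27 neural genes rose in TKO aggregates without cytokines, and most members of each list were not called. With scaling by library size alone 10 endoderm and 11 neural genes were called higher, and 8 neural genes without the filter on low counts. No test compared these shares with each other or with other genes. Among endoderm genes Foxa1, a pioneer factor, was at 217.5 and 167 normalised counts in TKO and at 11.8 and 21.9 in wild-type, with 3.48 ± 0.48 SE. Cer1, a secreted Nodal inhibitor, was at 47.4 and 51.7 with 1 wild-type count, a ratio of 148 (95% interval 25.8 to 5900), and had none in TKO aggregates with cytokines. Lama1, a laminin chain of basement membranes, fell at 228 and 174 against 1219 and 1537, with -2.79 ± 0.41 SE. Among mesoderm genes Foxc1 was at 194 and 154 against 7.65 and 10.3, at 4.24 ± 0.54 SE, and Col1a1, the main fibroblast collagen, at 1556 and 2224 against 35.5 and 223. The wild-type libraries of Col1a1 lay far apart, and neither reached the TKO levels. Without TKO replicate 1 the mesoderm calls fell from 8 to 4, and without wild-type replicate 1 to 5.

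Neural genes stayed far below the level of wild-type aggregates without cytokines. The summed level of 8 neural markers was 1662 and 2247 in TKO without cytokines, 540.3 and 477 in wild-type PGCLCs and 27515 and 27957 in wild-type aggregates without cytokines. Tubb3, a neuronal tubulin, was called higher at 1281.5 and 1878 against 314 and 261, with 2.44 ± 0.34 SE, and Pax3, of dorsal neural tube and somites, at 64.6 and 49.2 with 3 wild-type counts in all. Sox1, the marker of neural commitment, did not separate the groups at 102 and 89.6 against 74.4 and 93.3. Of 12 neural crest genes 4 were called, and 2 without TKO replicate 1 or without wild-type replicate 1. Tfap2a, shared by neural crest and surface ectoderm, was at 440.4 and 591 against 23.6 and 48.3, with 3.81 ± 0.35 SE (adjusted p = 7.44e-06).

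Trophoblast and simple keratin genes were called higher in 4 of 12 (2 without wild-type replicate 1), namely Tfap2a, Hand1, Krt8 and Krt18. The keratins and AP2 factors are shared with other epithelia. Krt8 was at 1218 and 1468 in TKO against 52.8 and 152 in wild-type, with 3.69 ± 0.61 SE, and at 1001.5 and 1096.5 in TKO with cytokines. Cdx2, the defining trophoblast factor, was at 23.7 and 10.1 against 53.5 and 19.9, which overlap, and 1 of 5 trophoblast markers had no count in either group. Endothelium and blood genes gave Lmo2 and Cd34 higher and Hbb-bh1 lower among 13, and without wild-type replicate 1 only Cd34 remained. Collagens and laminins were higher in 7 of 24 (3 without wild-type replicate 1, 4 without TKO replicate 1), led by Col1a1, Col5a2 and Col2a1, while Lama1 fell.

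HOX genes, which give cells their position along the body axis, were higher in 12 of 23 tested and lower in none, with a median log2 fold change of 2.73. All were of low level. Summed over the list, TKO without cytokines held 1010 and 760 normalised counts and wild-type PGCLCs 124 and 183. Wild-type aggregates without cytokines held more, at 4823 and 3075 at day 6. Hoxb9 was at 73.2 in both TKO libraries and at 14.6 and 16.7 in wild-type, with 2.20 ± 0.44 SE, and Hoxc4 at 48.5 and 46.7 against 6.95 and 5.15. Hoxb1 was at 23.7 and 24.0 with 2 wild-type counts, a ratio of 35.6 (95% interval 9.26 to 304). The calls came from the A, B, C and D clusters. Their number fell to 6 without wild-type replicate 1 and to 8 without TKO replicate 1. Hoxa2, of the hindbrain, was at 30.2 and 30.3 against 0.695 and 2.57, a ratio of 18.1 (95% interval 7.27 to 58.0). In TKO aggregates with cytokines against wild-type 12 HOX genes were called higher too.

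The largest share of calls among the 30 lists drawn up for the comparison was in two-cell-like genes, which are normally active in the two-cell embryo and in rare ESCs. Of 23 tested 21 were called higher and none lower, with a median log2 fold change of 4.16, and 20 or 21 were called on leaving out any of the 4 libraries. Zscan4d, the family member best known from two-cell embryos, was at 1078 and 1405 normalised counts in TKO and at 9.04 and 14.8 in wild-type, with 6.66 ± 0.44 SE (adjusted p = 3.11e-06). TKO aggregates with cytokines held 1731 and 1690.0. Zscan4a was at 1110.2 and 1356 against 21.6 and 42.5, Zscan4f at 534 and 569 against 4.87 and 10.3 and Usp17le, of a family of deubiquitinating enzymes, at 683 and 887 against 66.1 and 62.4, with log2 fold changes of 5.23 ± 0.45 SE, 6.13 ± 0.48 SE and 3.59 ± 0.25 SE. Dux, the factor that opens this programme, was at 24.8 and 37.9 against 4.17 and 8.37, and its call ended without TKO replicate 2 and without wild-type replicate 1 (adjusted p = 0.107 and 0.141). In TKO EpiLCs 6 genes of the list were called lower and none higher, where Zscan4d had no count in either TKO library and stood at 20.9 and 16.1 in wild-type. Zscan4, Usp17l, Tdpoz and Pramel genes are near-identical copies, and since reads that fit several places were not counted, the split between copies is uncertain.

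Other lists held few calls. Called higher were 6.45% of imprinted and 9.09% of interferon-stimulated genes, near the 7.44% of all tested genes. Of 31 imprinted genes, which are expressed from 1 parental copy, Grb10 (3772 and 3105 against 508 and 403) and Gnas (7595 and 8417 against 1756 and 1905) rose, with log2 fold changes of 2.90 ± 0.54 SE and 2.11 ± 0.19 SE, and 5 rose without wild-type replicate 2 and 6 with scaling by library size alone. No imprinted gene was called lower, although 2 were without the filter on low counts or with only the 4 libraries compared. With the replicate block or without TKO replicate 1 the lower calls numbered 1. Among 19 DNA methylation enzymes Dnmt3b alone was called. Of 22 interferon-stimulated genes 2 rose, Samd9l at 381 and 419 against 54.2 and 45.7 and Oas1a at 179 and 229.7 against 41.7 and 55.3, the latter not without TKO replicate 2 or wild-type replicate 1, and 4 rose with scaling by library size alone. Ankrd37 was the 1 call, lower, among 24 genes of glycolysis and hypoxia and ended on leaving out any library. Genes of cholesterol synthesis, p53 targets, ATF4 targets and the cell cycle, 21, 15, 19 and 24 tested, gave no call by edgeR. Among ATF4 targets 1 was called higher without TKO replicate 1 and with scaling by library size alone, and 1 lower without TKO replicate 2. At an adjusted p below 0.05 alone 4, 1, 4 and 6 of them were lower and 1, 2, 1 and 1 higher.

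Outside the lists, the genes with the lowest log2 fold changes were named by rule (a mean of at least 50 counts and no overlap between the groups). Slc15a2, a peptide transporter (chr16:36750161-36785158), was at 18.3 and 12.6 normalised counts in TKO and at 355 and 438 in wild-type, with -4.68 ± 0.57 SE. D2hgdh, which clears D-2-hydroxyglutarate, an inhibitor of TET enzymes, was at 11.8 and 11.4 against 202 and 211 (-4.16 ± 0.37 SE). Pou2f3, the factor of tuft cells, was at 20.5 and 6.31 against 98.0 and 221 (-3.56 ± 0.71 SE). Mgmt, which removes alkyl groups from guanine in DNA, was at 18.3 and 25.2 against 261 and 203. Slc15a2, D2hgdh and Mgmt were called lower in TKO EpiLCs as well, at -3.79, -5.25 and -5.53. A further set was low at day 6 and had a log2 fold change of less than 1 in size in EpiLCs. Aire, known from thymic tolerance, was at 79.7 and 69.4 against 627 and 902, Gstm3, a glutathione transferase, at 82.9 and 78.3 against 855 and 742, and Aifm3 at 48.5 and 41.7 against 419 and 392. Gna14, Lrrc31 and BC048679 completed it, at -3.29, -3.13 and -3.12, although BC048679 had no count in any EpiLC library and so no EpiLC value. In wild-type aggregates without cytokines Aire stood at 9.98 and 1.16 and Gstm3 at 0.453 and 1.16. Among the highest genes by the same rule 11 of 12 were eye or muscle genes or Dlx5, and the other was Zscan4b at 295 and 286.5 against 1.39 and 1.93.

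Genes on the X chromosome and on chromosome 14 were shifted as a whole. Among tested genes with a mean of at least 100 normalised counts in the 4 libraries, the 352 on the X had a median log2 fold change of 0.52 and the 354 on chromosome 14 one of 0.34, while the other autosomes lay between -0.26 and -0.01. In EpiLCs, which share no library with the day 6 comparison, the same genes had medians of 0.66 and 0.25, and the other autosomes lay between -0.05 and 0.07. Above 0 were 77.3% of the X genes and 70.6% of those on chromosome 14 at day 6, against 38.5% on the other autosomes. Called higher were 13.2% of the 620 tested X genes, 10.4% of the 577 on chromosome 14 and 7.06% of the 15290 on the other autosomes. By that share chromosome 14 did not stand apart, since chromosome 1 was at 10.3% and chromosome 13 at 9.86%. These values are descriptions across genes, which are not independent replicates.

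Xist, the RNA that coats an inactive X and that was chosen here after its value was seen, was at 623.5 and 538 in TKO without cytokines and at 48.0 and 58.6 in wild-type, with 3.42 ± 0.36 SE. TKO aggregates with cytokines held 138 and 177, and in EpiLCs its log2 fold change was -0.01. On the Y chromosome Ddx3y fell at 109.8 and 141 against 618 and 839.7, with -2.56 ± 0.37 SE, and it was also called lower in TKO EpiLCs, at -5.82. Its neighbours Uty, at 533 and 422 against 290.0 and 389, and Eif2s3y, at 987.5 and 806.5 against 918 and 1038, were not called.

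**Figure D4:**
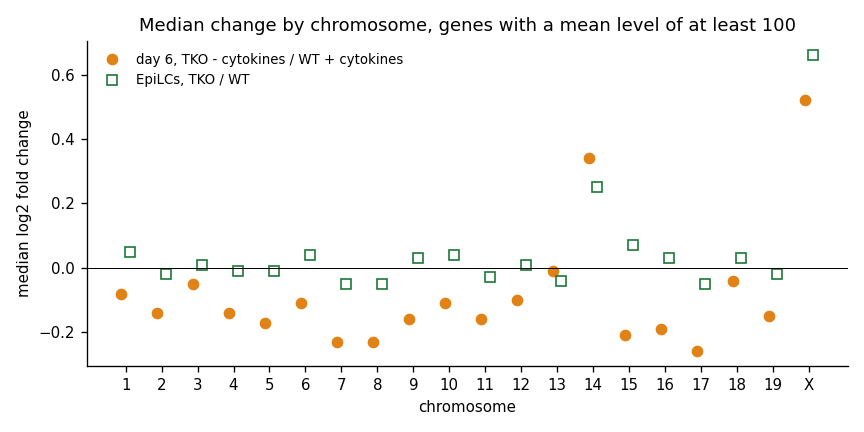
Median log2 fold change of the tested genes of each chromosome with a mean level of at least 100 normalised counts in the day 6 libraries compared. Filled orange circles are day 6 TKO without cytokines over wild-type with cytokines and open green squares TKO over wild-type EpiLCs. Chromosome 14 and the X stand above all others in both, at 0.34 and 0.52 at day 6.

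Against TKO aggregates with cytokines, which differ from the main TKO group by the cytokines in their labels, 268 genes were called higher without cytokines, 1.62%, and 40 lower, 0.241%. Leaving out any 1 of these 4 libraries brought the total of 308 calls to 142 and 113 for the TKO libraries without cytokines and to 92 and 151 for those with them. Higher without cytokines were the photoreceptor genes (26 of 35) and lens genes (7 of 15), Fgf5 at 4.54, Cdh2 at 2.33, Tfap2a at 2.65, Col1a1 at 3.43 and Actc1 at 6.99. Lower without cytokines were Socs3 at -3.77, Id1 at -2.76 and Klf4 at -2.46. Prdm1 stood at 1.48 and Prdm14 at -1.08, neither called, and the medians were -0.25 for PGC specification genes and -0.97 for two-cell-like genes.

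TKO aggregates with cytokines gave 760 genes higher (4.58%) and 164 lower (0.989%) than the same wild-type libraries, and 373 and 101 without wild-type replicate 1. The 3 comparisons at day 6 share libraries in pairs, so their values are set side by side without a test. PGC specification genes had medians of -0.95 without and -1.07 with cytokines, two-cell-like genes 4.16 and 5.50, HOX genes 2.73 and 3.05, and late germline genes 0.66 and 1.76. Formative and primed genes had medians of 1.29 and 0.54, neural genes 1.28 and 0.62, and naive genes -0.60 and 0.05. Cytokine receptors had medians of 0.32 and 0.19, ERK feedback genes 0.01 and -0.24, and early response genes -0.59 and 0.18.

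**Figure D5:**
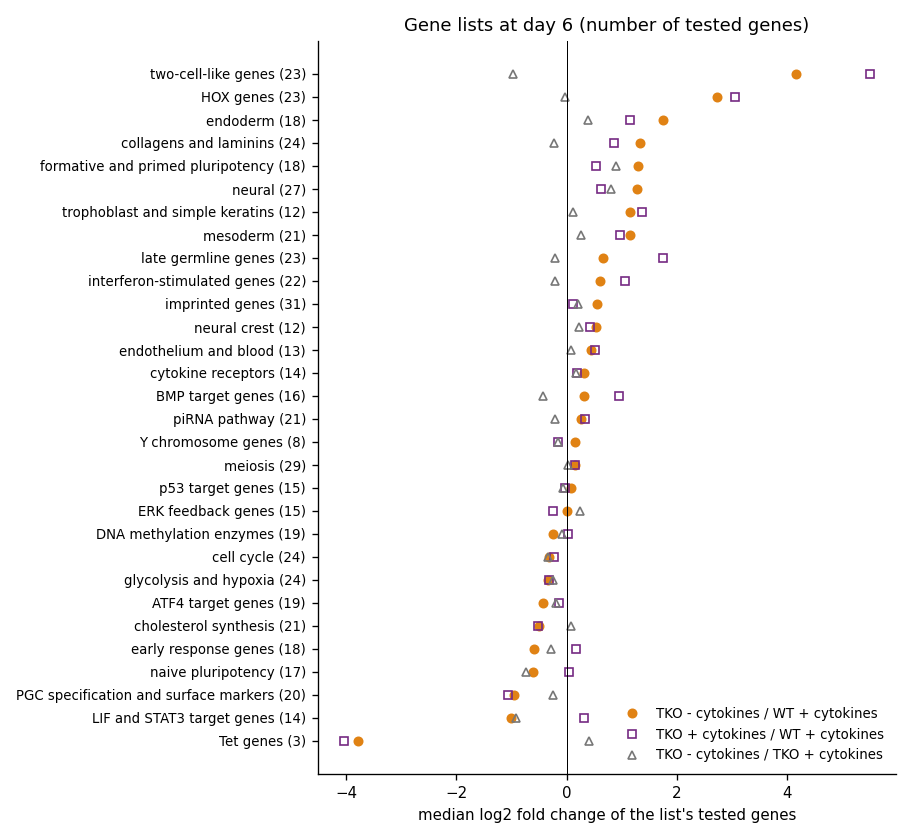
Median log2 fold change of the tested genes of each of 30 lists (number tested in brackets) in the day 6 comparisons. Filled orange circles are TKO without cytokines over wild-type with cytokines, open purple squares TKO with cytokines over the same wild-type libraries, and grey triangles TKO without over TKO with cytokines. Two-cell-like and HOX genes lie highest and Tet genes lowest in both comparisons with wild-type.

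TKO EpiLCs, the starting cells, had 284 genes called higher (1.71%) and 99 lower (0.597%) than wild-type EpiLCs, and the total of 383 fell to 205 and 168 without wild-type EpiLC replicate 1 and 2. Of the genes called higher at day 6, 85 were also higher in EpiLCs, which is 6.89% of the day 6 list and 29.9% of the EpiLC list. Lower in both were 10 genes, 9.01% and 10.1% of the lists, among them Tet1, Slc15a2, D2hgdh, Fkbp6, Mgmt and Ddx3y. A further 25 genes were higher at day 6 and lower in EpiLCs, 2.03% and 25.3% of the lists, and 1, Ier3, went the opposite way. Listed genes called higher at both stages were Brdt, Rad21l, Hand1, Foxc1, Gata4, Sox17, Tfap2a, Hoxd4, Col6a2, Samd9l, Hspa1a and Hspa1b.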

How the data were processed

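RNA was depleted of ribosomal RNA and libraries were made with a strand-specific kit. The authors deposited whole counts per gene, and the deposited counts were used as they stand. Per the labels and the submitters' processing notes, reads were trimmed with Trim Galore 0.5.0 and cutadapt 1.16, aligned to mm10 with STAR 2.7.1a and counted over refGene exons with featureCounts of Subread 1.5.2, without using strand and without fragments that map to several places or overlap several genes. Reads from antisense or overlapping genes and from near-identical copies can therefore be misassigned or missing.

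From the table of 25239 genes, 33 rows without values were left out. Counts were tested with edgeR 4.0.16 in R 4.3.3 (quasi-likelihood F test, 1 model of 9 group means over 18 libraries, trimmed mean of M values scaling, filterByExpr, Benjamini-Hochberg adjustment). A gene was called where its log2 fold change passed 2 in size and its adjusted p was under 0.05. Printed levels are counts divided by DESeq2 1.42.0 size factors, and an SE is the fold change over the root of its F statistic. For genes with 1 to 12 wild-type counts in all and more than 12 in TKO, printed ratios carry an exact 95% interval of counting error, and a group without counts was set to a floor of 3 counts per library. Library totals ran from 11286050 to 41257861 counts.

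Genes were named from the lists and by a rule, namely the 12 highest and 12 lowest fold changes among called genes with a mean of at least 50 counts whose groups did not overlap, and the 6 of each on no list that changed by less than 1 in EpiLCs. One gene that the rule names is not reported here. The members and lists were chosen with earlier results of these data known. In addition, 6 lists of eye, muscle, glia, liver and blood genes, Xist and 3 of the alternatives were chosen after seeing the data. The script was tested on simulated data. Alternatives were DESeq2, other scalings and filters, other limits, a replicate block and leaving out each library. Promoter windows are from RefSeq (GRCm38.p6), and gene coordinates are on that build.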

Additional observations from a re-analysis of the deposited data

Results flagged for a closer look

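The change from TKO to wild-type differed between day 6 and EpiLCs for 8 listed genes that were called in opposite directions at the 2 stages. Since this choice nearly fixes the outcome of a test of the difference, its sizes are given as a description. The difference of log2 fold changes, day 6 minus EpiLC, was 13.91 for Zscan4d, 10.32 for Zscan4f, 8.68 for Zscan4a and 7.89 for Usp17le. It was 10.38 for Gm8300, 8.82 for Tmem92 and 10.42 for Actc1, a cardiac actin. All of these were higher at day 6 and lower in EpiLCs, while Ier3 was lower at day 6 and higher in EpiLCs, at -4.51. Where a group had no count, as Zscan4d in TKO EpiLCs, the size of the difference depends on the prior count.

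The day 2 TKO libraries without cytokines, which stand on neither side of the comparisons tested here, held summed photoreceptor levels of 4998.1 and 9025.0 normalised counts. The 2 wild-type day 6 libraries with cytokines held 315.7 and 361.0, and the 2 without held 301.6 and 265.0.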

How the results depend on the processing

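The 1345 calls at day 6 became 2672 with the fold limit at 1 and 870 with the adjusted p limit at 0.01, and leaving out 1 library gave 718 (wild-type replicate 1) to 1073. For TKO with cytokines against wild-type, 924 calls became 2083, 580 and 474 to 805 in the same order. For TKO without against with cytokines, 308 became 650, 124 and 92 to 151, and 657 with scaling by library size alone. For EpiLCs, 383 became 1127, 168 and 168 to 384, and 609 with library size alone. Signs turned for 3 uncalled genes, Tet3 (0.40 with library size alone, -0.45 to 0.49 on leaving out 1 library), Eif2s3y (0.32 with library size alone, -0.31 to 0 on leaving out 1 library) and Nanog (0.43 with library size alone, 0 with a mean CPM of at least 1, -0.16 to 0.09 on leaving out 1 library). The cause was not tested. Of 1562 values of named genes under alternatives, 1484 kept direction and side of the threshold and 70 kept direction but lost the call. With a replicate block the counts were 1344, 911, 295 and 382. Deviations of same-numbered libraries from their group means correlated across genes at -0.137 between the 2 groups compared. Over 36 pairs of groups the correlations were -0.156 to 0.182. With 2 libraries per group such values cannot decide whether the numbers pair the samples. Crossed pairing, added after seeing the data, gave 1332 calls. Genes with few counts in wild-type carry wide intervals on their ratios, although the wild-type libraries were the deeper ones. Depth was lower in the TKO libraries.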
